A study of Homo sapiens with 8 samples.

Results

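The genes described here are 34 human genes of the endoplasmic reticulum (ER) chaperone system and the unfolded protein response, out of 57055 genes whose Ensembl identifiers matched GENCODE 29. They were taken from both expression tables by a list of gene symbols; the rule uses no measured value, but the list was drawn up with earlier results of these data known. They comprise 12 chaperones and co-chaperones, 6 oxidoreductases, 9 genes of ER-associated degradation, 4 stress sensors and transcription factors, and 3 genes of protein translocation, vesicle export and ER calcium. RNA was sequenced from A549 cells, an established human lung adenocarcinoma line, in 8 libraries forming 4 groups of 2. The groups were LY6K-AS knockdown (25 pmol of an LNA gapmer, an antisense oligonucleotide with locked bases that recruits RNase H to its target), LNA control (25 pmol of a scramble gapmer), YWHAG knockdown (40 pmol of siRNA against YWHAG, which encodes 14-3-3 gamma) and siRNA control (40 pmol of a scramble siRNA), and all received the lipid reagent RNAiMAX. The titles of each knockdown pair carry different numbers (LNA1 and LNA3, si1 and si2). These may number separate reagents or only samples, and the labels do not settle this. Separate cultures are not stated either, so each p-value below covers only how far these particular libraries differ, and that spread may be technical.

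The ER folds secreted and membrane proteins with the help of chaperones such as BiP, lectins that hold glycoproteins and enzymes that form disulfide bonds. When unfolded protein accumulates, the membrane sensors IRE1, PERK and ATF6 start a response in which IRE1 splices the XBP1 transcript, PERK phosphorylates eIF2alpha, and ATF6 is cleaved to a transcription factor. Spliced XBP1 and cleaved ATF6 switch on chaperone and degradation genes through short promoter elements, the ER stress response element (ERSE), its variant ERSE-II and the unfolded protein response element (UPRE).

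The promoters of these genes were searched for the 3 elements, through which some of them are known to respond to ER stress. A RefSeq window reaching 250 bases upstream and 50 bases downstream of the transcription start (GRCh38.p14) was matched for 30 of the 34 members, and PDIA3, DERL1, DERL3 and SEC24D had none. ERSE, spelled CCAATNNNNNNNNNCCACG (CCAAT and CCACG with 9 free bases between) and searched on both strands as all motifs were, was present in 6 of 30 members (20%), namely HSPA5, HSP90B1, CRELD2, CALR, PDIA6 and ERO1B, and in 22 of 27305 promoters overall (0.0806%). ERSE-II, spelled ATTGGNCCACG, was present in 3 members (10%), HYOU1, SDF2L1 and HERPUD1, and in 17 promoters overall (0.0623%). The core of UPRE, TGACGTGG, was present in HYOU1, where it overlaps an ERSE-II, and in DNAJC10, 6.67% of members against 0.762% of all promoters. The windows of the other 20 members held none of the 3. Only a single window was searched per gene, so elements near any other start were not looked for. The members' windows were richer in GC than all windows (median 68.2% against 58%). Single CCAAT boxes (83.3% against 35.6%) and CCACG boxes (70% against 37.5%) were also more frequent in them. The part of this in the shares above was not tested. The sites that lie outside annotated exons are shown from 5′ to 3′ on the strand of the gene, with 12 flanking bases on each side where the window holds them and with the CCAAT and CCACG boxes (or their reverse complements ATTGG and CGTGG) in capitals.
HSPA5 (ERSE, chr9:125241379-125241421, minus strand): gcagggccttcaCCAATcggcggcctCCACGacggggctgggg
CALR (ERSE, chr19:12938372-12938414, plus strand): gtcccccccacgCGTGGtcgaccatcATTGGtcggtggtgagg
CRELD2 (ERSE, chr22:49918542-49918584, plus strand): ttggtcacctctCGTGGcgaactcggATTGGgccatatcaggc
ERO1B (ERSE, chr1:236282171-236282208, minus strand): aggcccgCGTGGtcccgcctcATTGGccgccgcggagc
HYOU1 (distal ERSE-II, chr11:119057368-119057402, minus strand): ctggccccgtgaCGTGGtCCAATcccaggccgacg
HYOU1 (proximal ERSE-II, chr11:119057262-119057296, minus strand): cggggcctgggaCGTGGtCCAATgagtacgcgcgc
SDF2L1 (ERSE-II, chr22:21642102-21642136, plus strand): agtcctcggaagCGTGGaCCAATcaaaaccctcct
HERPUD1 (ERSE-II, chr16:56932013-56932047, plus strand): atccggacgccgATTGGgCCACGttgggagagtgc
The ERSE of HSPA5 begins 66 bases upstream of the start, that of CRELD2 80 bases and that of CALR 225 bases, while the ERSE-II sites of HYOU1 begin 185 and 79 bases upstream. In GENCODE 29 the CRELD2 site falls inside the annotated gene but in no exon, because other transcripts start further upstream, and the remaining sites shown lie outside any gene. These matches describe the letters of the window and say nothing of binding.

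The 2 tables were normalized separately, so every change was taken inside a table and no level is compared across them. Implied library totals were 26.2 M and 30.9 M reads in LY6K-AS knockdown, at least 30.5 M in the LNA controls, 34.6 M and 33.7 M in YWHAG knockdown and 34.5 M in each siRNA control; 3 reads corresponded to 0.0868 to 0.115 reads per M (RPM). Mitochondrially encoded genes took 8.29% and 4.09% of reads in LY6K-AS knockdown 1 and 2 and 8.35% and 6.36% in LNA controls 1 and 2, and the part of this difference in any result was not tested. YWHAG stood at 13.5 and 4.91 RPKM (reads per kilobase of exon and M reads) in its knockdown libraries and at 163 and 158 RPKM in siRNA controls, a ratio of 0.0579 (exact 95% interval 0.0555 to 0.0603). LNCOC1, which is annotated antisense to LY6K and stands for LY6K-AS here, held 3 and 8 reads in its knockdown and 34 and 17 reads in LNA controls, a ratio of 0.244 (0.115 to 0.474); both intervals cover counting error only. Of 9 lung epithelial markers 6 were measured and NKX2-1, SFTPB and SFTPC were near 0 in every library; the summed level was 1505 to 1523 RPKM in LY6K-AS knockdown and 1275 to 1285 RPKM in LNA controls, and 1167 to 1222 RPKM in YWHAG knockdown and 853 to 939 RPKM in siRNA controls. Single markers differed in direction. EPCAM was under 2 RPKM and lower in both LY6K-AS knockdown libraries than in both LNA controls. KRT7, at 856 and 583 RPKM in LY6K-AS knockdown, lay on either side of 703 RPKM in both LNA controls. After YWHAG knockdown EPCAM was lower (4.39 and 7.2 against 9.04 and 10.6 RPKM in siRNA controls) and KRT19 overlapped its controls. KRT7, KRT8, KRT18 and CDH1 (10.9 and 13.5 against 4.63 and 4.42 RPKM) lay above both siRNA controls. The 4 genes of the NRF2 programme, active in A549, summed to 4068 to 4501 RPKM in LY6K-AS knockdown and 5192 to 5379 RPKM in LNA controls. They summed to 5039 to 5270 RPKM in YWHAG knockdown and 4675 to 4919 RPKM in siRNA controls. Of the 4, only AKR1B10 lay above both siRNA controls after YWHAG knockdown (2514 and 2771 against 2123 and 2043 RPKM). NQO1 (515 and 503 against 665 and 612 RPKM) and AKR1C1 (86.3 and 88.9 against 115 and 110 RPKM) lay below both, and ALDH1A1 overlapped. The part of these shifts in any result was not tested. Of the markers of other cell types, 1 of 5 immune (CD14), 1 of 5 fibroblast (COL1A1) and 0 of 4 endothelial genes were measured.

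Together the 34 members summed to 1512 and 1514 RPKM in LY6K-AS knockdown and to 1497 and 1508 RPKM in LNA controls. They summed to 1919 and 1820 RPKM in YWHAG knockdown and to 1746 and 1624 RPKM in siRNA controls. The members ranged widely in level. In siRNA controls HSPA5 and HSP90B1 led with mean levels of 329 and 270 RPKM, and in LNA controls CALR (252 RPKM) and HSPA5 (183 RPKM) led. At the low end of the measured members were SEC24D, ERO1B and ERN1 in siRNA controls (3.38, 2.32 and 1.92 RPKM) and DNAJB9, ERN1 and ERO1B in LNA controls (3.65, 2.31 and 2.05 RPKM). Whether reads of the LNA table were counted over exons alone or over the whole gene is not stated, which limits comparisons of level between genes there. DERL3, a derlin of secretory tissues, had 6 and 6 reads in LY6K-AS knockdown, 7 and 5 in LNA control, 2 and 1 in YWHAG knockdown and 5 and 6 in siRNA control. It shares 77% of its exon length with SMARCB1 on the opposite strand and did not reach the filter of 0.5 RPKM in 2 libraries, so 33 of 34 members were tested in each comparison.

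The first comparison asked whether depletion of LY6K-AS moved these genes. After LY6K-AS knockdown the members divided evenly, 16 higher and 17 lower (50.3% of all genes were higher), with a median log2 change of -0.00 beside 0.00 over the 14662 genes tested. The sensor ERN1 and the ubiquitin ligase gene SYVN1 stood highest above their controls (log2 changes 0.71 and 0.56), and the sensor ATF6 lay furthest below (-0.52). In limma's test with Benjamini-Hochberg adjustment over all genes, 0 members passed an adjusted p of 0.05, as did 0 genes overall (0%); voom on the recovered reads also gave 0 genes. At an unadjusted p under 0.05 there were 6 higher members (WFS1, ERN1, CRELD2, DNAJB9, SDF2L1 and SYVN1), where 13.6% of all genes were higher at that level, and 2 lower (HSP90B1 and ATF6), where 11.7% were lower. Both knockdown libraries lay above both controls for 12 members (31.5% of all genes did so) and below both for 11 (30.5% of all genes). These shares are near those of all genes tested. Calls depended on single libraries: without LY6K-AS knockdown 1, 21 members passed an adjusted p of 0.05 in limma beside 7731 genes (52.7%), and without LY6K-AS knockdown 2, 8 members beside 4356 genes (29.7%), the spread then coming from the 2 controls alone. With the spread pooled over all 8 libraries 0 members passed, beside 64 genes (0.498%).

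After YWHAG knockdown more members were higher than lower, 25 against 8 (42.4% of all genes were higher), with a median log2 change of 0.19 beside -0.05 over the 13903 genes tested. The oxidase ERO1A, the lectin chaperone CANX, the degradation factor HERPUD1 and the export coat gene SEC24D had the largest higher values, between 0.61 and 0.69 on the log2 scale. Again 0 members passed an adjusted p of 0.05 in limma, as did 0 genes overall (0%), and voom gave 0 genes. At an unadjusted p under 0.05 there were 10 higher members (ERO1A, CANX, HERPUD1, P4HB, HYOU1, SEC24D, SEL1L, EIF2AK3, PDIA6 and SYVN1), where 7.51% of all genes were higher, and 1 lower (DNAJB9), where 8.9% were lower. Both knockdown libraries lay above both controls for 16 members (20.4% of all genes) and below both for 4 (30.8% of all genes). With trimmed-mean (TMM) scaling, which moved the median of all genes to 0.00, 27 members were higher and 6 lower with a median of 0.25 (50.2% of all genes were higher). With the spread pooled over all 8 libraries, ERO1A passed (log2 change 0.67 ± 0.11 SE, limma adjusted p = 0.0371), the 1 member among 214 genes that did (1.66% of those tested). In bulk RNA, fewer cells of a type and less RNA per cell cannot be told apart.

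**Figure D1:**
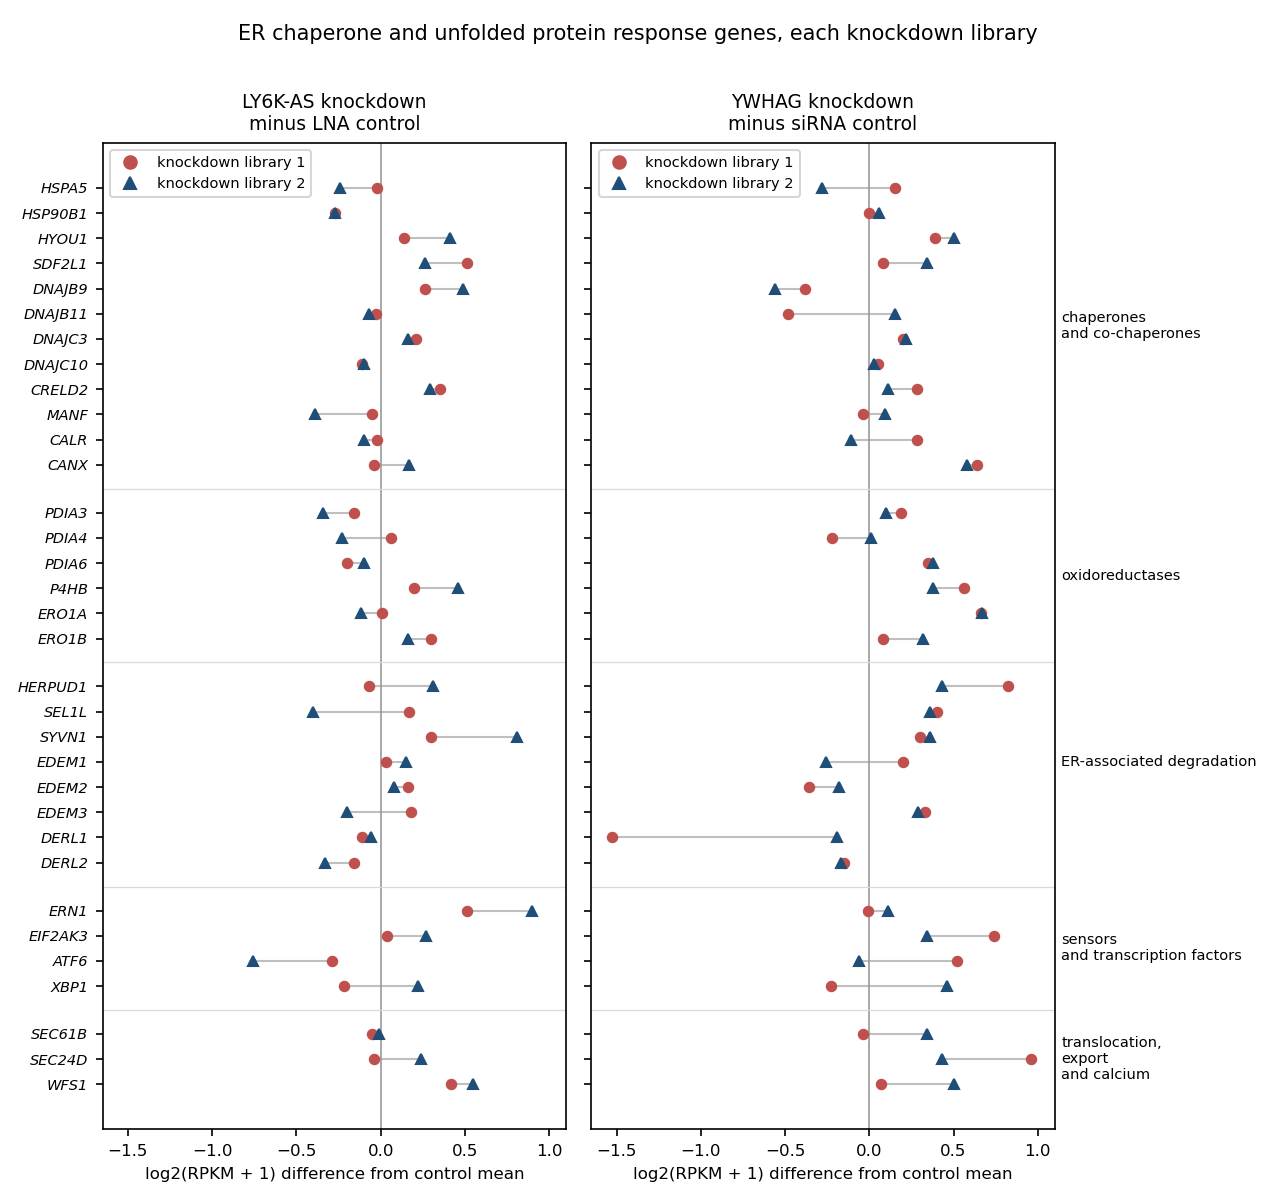
Each row is a member and each point 1 knockdown library, plotted as its log2(RPKM + 1) minus the mean of the 2 controls (x axis), for LY6K-AS knockdown on the left and YWHAG knockdown on the right. On the right 16 of 33 members have both points above both controls, among them ERO1A and CANX with nearly coincident points, while DERL1 has the widest gap between its points (-1.53 and -0.19); on the left ERN1 lies furthest right (0.51 and 0.90) and ATF6 furthest left (-0.29 and -0.76).

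Among the chaperones and co-chaperones, the best known member differed little in mean level from its controls in either knockdown. HSPA5 (ENSG00000044574.7, hg38 chr9:125234853-125241330, minus strand) encodes BiP, the ER Hsp70 that also holds the sensors inactive. It was at 180 and 154 RPKM in LY6K-AS knockdown and at 183 and 183 RPKM in LNA controls (log2 change -0.13 ± 0.12 SE, limma adjusted p = 0.509). It was at 366 and 271 RPKM in YWHAG knockdown and at 354 and 305 RPKM in siRNA controls (-0.06 ± 0.19, limma adjusted p = 0.896). The YWHAG libraries fell on either side of their controls, and the LY6K-AS libraries lay below theirs, library 1 only slightly. HSP90B1, the ER Hsp90 GRP94, was at 119 and 119 RPKM in LY6K-AS knockdown and at 144 and 143 RPKM in LNA controls (-0.27 ± 0.09, limma adjusted p = 0.17). It was at 269 and 282 RPKM in YWHAG knockdown and at 284 and 256 RPKM in siRNA controls, so those groups overlapped.

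HYOU1 (ENSG00000149428.18, hg38 chr11:119044189-119057202, minus strand), a large Hsp70 that exchanges the nucleotide of BiP and carries the pair of ERSE-II sites shown above, was higher in both knockdowns. It was at 22.7 and 27.6 RPKM in LY6K-AS knockdown and at 20 and 20.9 RPKM in LNA controls (0.28 ± 0.12, limma adjusted p = 0.252). It was at 20 and 21.8 RPKM in YWHAG knockdown and at 16 and 14.2 RPKM in siRNA controls (0.44 ± 0.14, limma adjusted p = 0.262). No library of either knockdown reached down to its controls. CANX (ENSG00000127022.14, hg38 chr5:179678628-179730925, plus strand), the membrane lectin calnexin, differed most in this group after YWHAG knockdown. It was at 229 and 220 RPKM in YWHAG knockdown and at 152 and 141 RPKM in siRNA controls. That was a 1.53-fold difference of RPKM + 1 (log2 change 0.61 ± 0.13, limma adjusted p = 0.203). CANX was at 148 and 172 RPKM in LY6K-AS knockdown and at 151 and 153 RPKM in LNA controls, where the groups overlapped. Its soluble relative CALR did not share this: 228 and 174 RPKM in YWHAG knockdown lay on either side of 187 and 188 RPKM in siRNA controls.

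DNAJB9 (ENSG00000128590.4, hg38 chr7:108569568-108574850, plus strand), the BiP co-chaperone ERdj4 that represses IRE1, pointed in opposite directions in the 2 knockdowns. It was at 4.58 and 5.52 RPKM in LY6K-AS knockdown and at 3.58 and 3.72 RPKM in LNA controls (0.38 ± 0.12, limma adjusted p = 0.162). It was at 8.3 and 7.2 RPKM in YWHAG knockdown and at 10.2 and 12 RPKM in siRNA controls (-0.47 ± 0.15, limma adjusted p = 0.27). The groups did not overlap in either table. DNAJB9 shares 6.45% of its exon length with THAP5 and 3.49% with PNPLA8 on the opposite strand, and reads there cannot be assigned without strand.

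SDF2L1, a partner of the ER co-chaperone complex, was at 51.1 and 42.6 RPKM in LY6K-AS knockdown and at 34.3 and 36.8 RPKM in LNA controls (0.38 ± 0.12, limma adjusted p = 0.167). In YWHAG knockdown it was at 11.7 and 14.2 RPKM, overlapping the 9.74 and 12.4 RPKM of siRNA controls. CRELD2, an ER stress-inducible protein with disulfide isomerase activity, was at 9.75 and 9.32 RPKM in LY6K-AS knockdown and at 7.52 and 7.32 RPKM in LNA controls (0.32 ± 0.09, limma adjusted p = 0.138). Both genes have GC-rich transcripts (66.1% and 59.7% GC), and once the GC trend of each library had been removed their changes were 0.08 and 0.15. Of the other 5 members of the group, the J-domain proteins DNAJB11, DNAJC3 and DNAJC10, the secreted stress protein MANF and calreticulin, log2 changes ran from -0.22 (MANF) to 0.19 (DNAJC3) after LY6K-AS knockdown and from -0.17 (DNAJB11) to 0.21 (DNAJC3) after YWHAG knockdown. Over the 12 genes the medians were 0.01 after LY6K-AS knockdown and 0.06 after YWHAG knockdown.

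**Figure D2:**
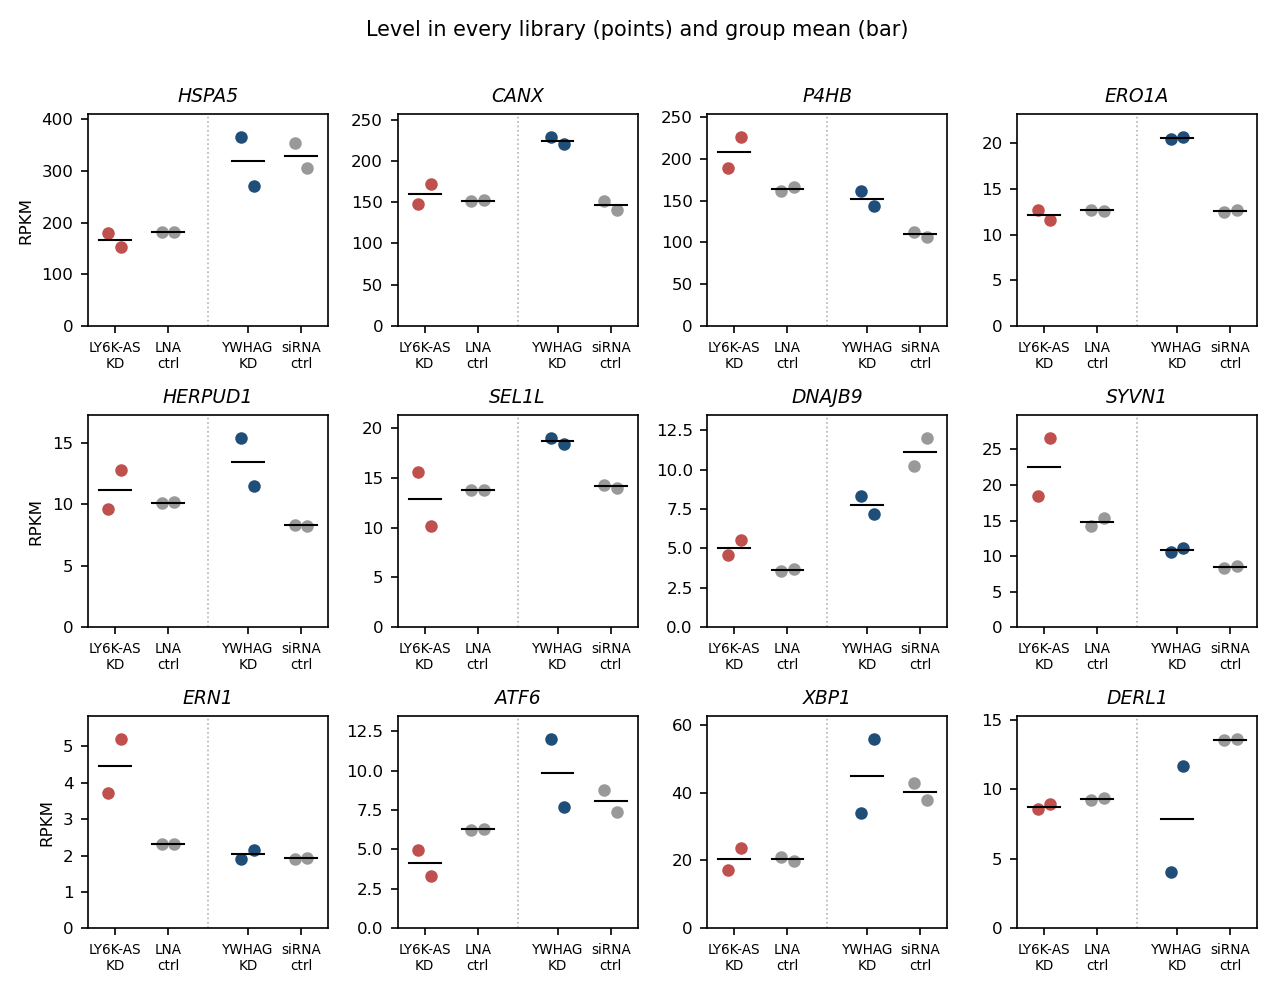
Points give the RPKM (y axis, from 0) of 12 members in every library and bars the group means, with LY6K-AS knockdown (red) and LNA control on the left of each panel and YWHAG knockdown (blue) and siRNA control on the right. ERO1A, CANX and SEL1L stand above both siRNA controls after YWHAG knockdown and overlap the LNA controls after LY6K-AS knockdown, ERN1 shows the reverse, and DERL1 in YWHAG knockdown has 1 library at 4.02 RPKM and 1 at 11.7 RPKM.

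The oxidoreductases form and shuffle disulfide bonds, with ERO1 oxidases recharging the protein disulfide isomerases. After YWHAG knockdown 5 of 6 were higher (median log2 change 0.28), and after LY6K-AS knockdown 2 of 6 (median -0.07). ERO1A (ENSG00000197930.12, hg38 chr14:52639916-52695900, minus strand) was at 20.5 and 20.7 RPKM in YWHAG knockdown and at 12.5 and 12.7 RPKM in siRNA controls. That was a 1.59-fold difference of RPKM + 1 (log2 change 0.67 ± 0.12, limma adjusted p = 0.185). ERO1A was at 12.7 and 11.6 RPKM in LY6K-AS knockdown and at 12.7 and 12.6 RPKM in LNA controls (-0.06 ± 0.09, limma adjusted p = 0.729). The YWHAG libraries lay close together and above their controls, while the LY6K-AS libraries overlapped theirs. Its less abundant paralogue ERO1B was at 2.52 and 3.14 RPKM in YWHAG knockdown and 2.46 and 2.18 RPKM in siRNA controls (0.20 ± 0.15, limma adjusted p = 0.53). ERO1B was at 2.74 and 2.41 RPKM in LY6K-AS knockdown and at 1.94 and 2.16 RPKM in LNA controls (0.23 ± 0.11, limma adjusted p = 0.267).

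P4HB (ENSG00000185624.14, hg38 chr17:81843159-81860694, minus strand), the archetypal protein disulfide isomerase, was higher in both knockdowns. It was at 189 and 226 RPKM in LY6K-AS knockdown and at 161 and 166 RPKM in LNA controls (0.33 ± 0.13, limma adjusted p = 0.206), and the change was 0.20 with the GC trend removed. It was at 161 and 143 RPKM in YWHAG knockdown and at 113 and 106 RPKM in siRNA controls (0.47 ± 0.14, limma adjusted p = 0.255). The groups did not overlap in either table. PDIA6, an isomerase that also regulates IRE1 and PERK, was at 74.9 and 80.3 RPKM in LY6K-AS knockdown and at 87.3 and 84.6 RPKM in LNA controls, below both (-0.15 ± 0.09, limma adjusted p = 0.368). It was at 87.5 and 89.5 RPKM in YWHAG knockdown and at 69.8 and 67.2 RPKM in siRNA controls, above both (0.37 ± 0.12, limma adjusted p = 0.274). PDIA3 is the isomerase that works with calnexin and calreticulin. It was at 30.3 and 26.8 RPKM in LY6K-AS knockdown and at 33.3 and 34.8 RPKM in LNA controls (-0.25 ± 0.10, limma adjusted p = 0.226). Over both experiments its near-identical pseudogene PDIA3P1 held reads equal to 3.12% of those of PDIA3. The share was larger in the gapmer experiment (a mean of 333 reads per library beside 4043 of PDIA3) than in the siRNA experiment (270 beside 15304). After YWHAG knockdown PDIA3 overlapped its controls, as did PDIA4 in both comparisons.

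In ER-associated degradation, misfolded glycoproteins are picked out by EDEM lectins and passed through derlins to the SYVN1 ubiquitin ligase (HRD1) with its adaptor SEL1L. HERPUD1 (ENSG00000051108.14, hg38 chr16:56932048-56944863, plus strand), a scaffold of that complex whose promoter holds an ERSE-II, was at 15.4 and 11.5 RPKM in YWHAG knockdown and at 8.32 and 8.27 RPKM in siRNA controls. That was a 1.54-fold difference of RPKM + 1 (log2 change 0.62 ± 0.17, limma adjusted p = 0.251). HERPUD1 was at 9.61 and 12.8 RPKM in LY6K-AS knockdown, on either side of 10.1 and 10.2 RPKM in LNA controls. SEL1L was at 19 and 18.4 RPKM in YWHAG knockdown and at 14.3 and 14 RPKM in siRNA controls (0.38 ± 0.12, limma adjusted p = 0.27). In LY6K-AS knockdown SEL1L was at 15.6 and 10.2 RPKM, on either side of 13.8 and 13.8 RPKM in LNA controls.

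SYVN1 (ENSG00000162298.16, hg38 chr11:65121780-65134533, minus strand) was higher in both knockdowns. It was at 18.4 and 26.6 RPKM in LY6K-AS knockdown and at 14.2 and 15.3 RPKM in LNA controls (0.56 ± 0.19, limma adjusted p = 0.183). It was at 10.6 and 11.2 RPKM in YWHAG knockdown and at 8.36 and 8.59 RPKM in siRNA controls (0.33 ± 0.13, limma adjusted p = 0.299). SYVN1 shares 7.24% of its exon length with the abundant gene FAU on the same strand and 6.48% with MRPL49 on the other, so part of its reads may be theirs.

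The measured derlins DERL1 and DERL2, which help proteins leave the ER membrane, lay below both controls in both knockdowns. DERL1 (ENSG00000136986.9) was at 4.02 and 11.7 RPKM in YWHAG knockdown and at 13.5 and 13.6 RPKM in siRNA controls. Library 1 alone carried most of that difference: the log2 change was -0.86 ± 0.44 (limma adjusted p = 0.395) with both libraries and -0.19 without YWHAG knockdown 1. In LY6K-AS knockdown DERL1 was at 8.58 and 8.92 RPKM and in LNA controls at 9.23 and 9.39 RPKM. DERL2 was at 8.89 and 7.83 RPKM in LY6K-AS knockdown and at 10.3 and 9.87 RPKM in LNA controls (-0.24 ± 0.10, limma adjusted p = 0.228), and at 9.85 and 9.73 RPKM in YWHAG knockdown and 11 and 11.2 RPKM in siRNA controls (-0.16 ± 0.12, limma adjusted p = 0.548). The EDEM genes, which trim mannose from misfolded glycoproteins, were mixed. EDEM2 lay above both LNA controls after LY6K-AS knockdown (37.9 and 35.7 against 34.1 and 33.3 RPKM) and below both siRNA controls after YWHAG knockdown (28.4 and 32.3 against 37.7 and 35.6 RPKM). EDEM3 was at 7.95 and 7.71 RPKM in YWHAG knockdown and at 6.44 and 5.78 RPKM in siRNA controls (0.31 ± 0.13, limma adjusted p = 0.324), and EDEM1 overlapped its controls in both tables.

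The sensors showed the widest spread after LY6K-AS knockdown. ERN1 (ENSG00000178607.15, hg38 chr17:64039142-64130819, minus strand), which encodes IRE1alpha, was at 3.72 and 5.2 RPKM in LY6K-AS knockdown (1058 and 1744 reads) and at 2.31 and 2.31 RPKM in LNA controls (854 and 766 reads). That was a 1.63-fold difference of RPKM + 1 (log2 change 0.71 ± 0.16, limma adjusted p = 0.119). Voom on the recovered reads gave a log2 change of 0.92. Removing the GC trend left the change of RPKM + 1 at 0.70. In YWHAG knockdown ERN1 was at 1.9 and 2.16 RPKM and in siRNA controls at 1.91 and 1.93 RPKM, so the groups overlapped (0.05 ± 0.13, limma adjusted p = 0.865). ATF6 (ENSG00000118217.5, hg38 chr1:161766294-161964070, plus strand) was at 4.97 and 3.3 RPKM in LY6K-AS knockdown and at 6.25 and 6.3 RPKM in LNA controls (-0.52 ± 0.18, limma adjusted p = 0.185). In YWHAG knockdown ATF6 was at 12 and 7.69 RPKM, and the second of these lay between the 8.8 and 7.36 RPKM of siRNA controls.

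EIF2AK3 (ENSG00000172071.11, hg38 chr2:88556741-88627576, minus strand), which encodes PERK, was at 7.6 and 5.5 RPKM in YWHAG knockdown and at 4.18 and 4.1 RPKM in siRNA controls (0.54 ± 0.18, limma adjusted p = 0.27). It was at 3.96 and 4.81 RPKM in LY6K-AS knockdown and at 3.82 and 3.84 RPKM in LNA controls (0.15 ± 0.12, limma adjusted p = 0.453). XBP1 (ENSG00000100219.16, hg38 chr22:28794555-28800597, minus strand), the transcript that IRE1 splices, straddled its controls in both tables. It was at 17.3 and 23.8 RPKM in LY6K-AS knockdown and at 20.9 and 19.8 RPKM in LNA controls, and at 34 and 55.8 RPKM in YWHAG knockdown and 42.8 and 37.7 RPKM in siRNA controls. In both knockdowns library 1 was the lower and library 2 the higher, and gene-level values do not separate spliced from unspliced XBP1.

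Of the last group, WFS1 (ENSG00000109501.13, hg38 chr4:6269849-6303265, plus strand), the ER membrane protein wolframin that supports calcium stores, had the smallest p of any member after LY6K-AS knockdown. It was at 12.8 and 14.1 RPKM in LY6K-AS knockdown and at 8.91 and 9.74 RPKM in LNA controls (0.49 ± 0.10, limma adjusted p = 0.111). With the GC trend removed the change was 0.28. In YWHAG knockdown WFS1 was at 5.33 and 7.55 RPKM and in siRNA controls at 4.8 and 5.27 RPKM (0.29 ± 0.19, limma adjusted p = 0.488). SEC24D, a cargo-binding subunit of the COPII export coat, was at 7.49 and 4.87 RPKM in YWHAG knockdown and at 3.65 and 3.11 RPKM in siRNA controls. That was a 1.62-fold difference of RPKM + 1 (log2 change 0.69 ± 0.22, limma adjusted p = 0.265). Voom on the recovered reads gave a log2 change of 0.92. SEC24D overlapped its controls after LY6K-AS knockdown, with 3.98 and 5.05 RPKM in the knockdown and 4.19 and 4.08 RPKM in LNA controls. SEC61B, a subunit of the translocon, was at 65 and 66.8 RPKM in LY6K-AS knockdown and at 68.8 and 65.7 RPKM in LNA controls, and at 53.6 and 70.3 RPKM in YWHAG knockdown and 52 and 58.6 RPKM in siRNA controls, so it overlapped its controls in both.

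The change of a member after LY6K-AS knockdown went with the base composition of its transcripts. Over the 33 members the Spearman correlation of log2 change with GC content was 0.41, beside 0.54 over all 14662 genes tested; the genes of 1 library share its preparation and are not independent. The 11 members of at least 50% GC had a median change of 0.32 and the 22 below 50% had -0.04. With the GC trend removed these medians were 0.15 and 0.07, and 24 members were then higher and 9 lower, with a median of 0.09 beside 0.02 over all genes (52.9% of which were higher). The correlation with GC content was then 0.02 over the members and 0.14 over all genes. Under that correction HSP90B1 was at -0.13, SYVN1 at 0.43 and ATF6 at -0.38. It also moved the changes of HSPA5 to -0.04, PDIA3 to -0.15, PDIA6 to -0.05 and DERL2 to -0.11, all closer to 0, and those of ERO1B to 0.39, DNAJC3 to 0.34 and EIF2AK3 to 0.29, all further from it. After YWHAG knockdown the correlation with GC content was -0.03 over the members and 0.03 over all genes, and 25 members were higher and 8 lower with or without the correction.

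**Figure D3:**
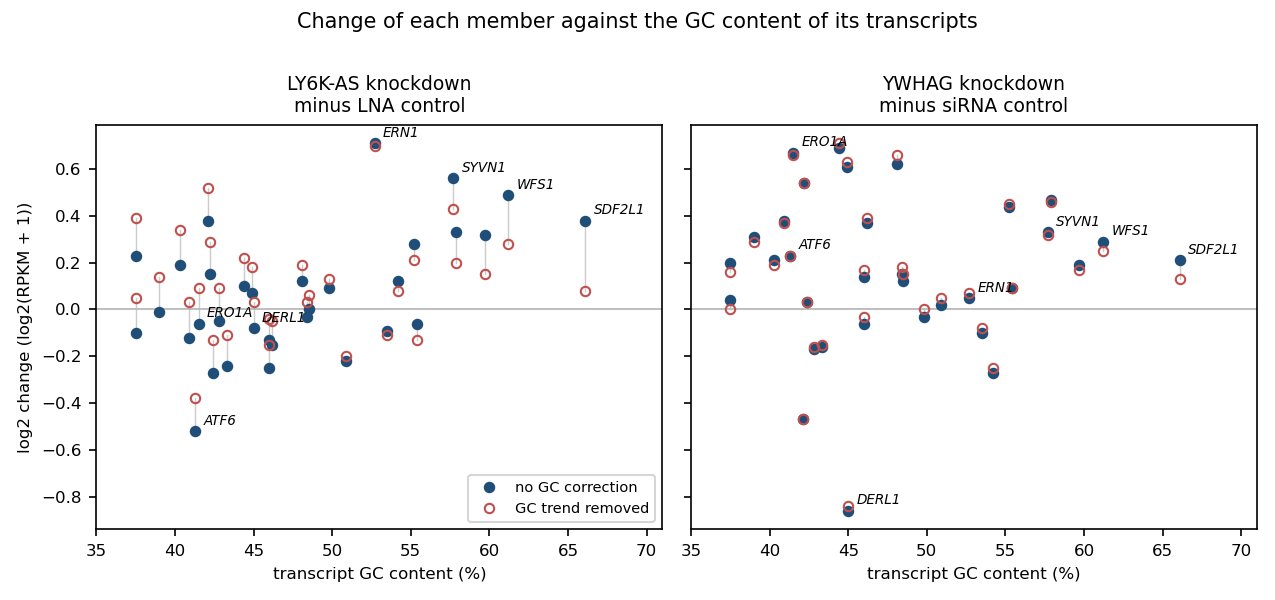
Each member's log2 change (y axis) is plotted against the GC content of its transcripts in percent (x axis), as fitted (filled) and after removal of each library's GC trend (open), a line joining the 2 values. After LY6K-AS knockdown (left) the GC-rich genes SDF2L1, WFS1 and SYVN1 move down under the correction while ERN1 stays (0.71 and 0.70), and after YWHAG knockdown (right) the values barely move.

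The changes in the 2 knockdowns were then set side by side. Both comparisons placed HYOU1, DNAJC3, CRELD2, P4HB, ERO1B, SYVN1, EIF2AK3 and WFS1 above both of their own controls (8 members, where 6.37% of all genes did so), and DERL1 and DERL2 below both (11.7% of all genes). DNAJB9 and EDEM2 lay above after LY6K-AS knockdown and below after YWHAG knockdown (8.3% of all genes), and DNAJC10 and PDIA6 the other way (6.1% of all genes). The difference of the 2 changes was tested in 1 limma fit over all 8 libraries; 23 of 12863 genes passed an adjusted p of 0.05 (0.179%) and 0 members did, in voom as well. At an unadjusted p under 0.05 there were 6 members, where 20.4% of all genes were at that level. ERO1A had a difference (LY6K-AS change minus YWHAG change) of -0.72 ± 0.15 (limma adjusted p = 0.0871) and DNAJB9 of 0.84 ± 0.20 (limma adjusted p = 0.103). ERN1 followed with 0.66 ± 0.21, CANX with -0.55 ± 0.18, PDIA6 with -0.51 ± 0.15 and EDEM2 with 0.39 ± 0.16, with limma adjusted p-values from 0.139 to 0.24. Leaving out 1 library changed this in either direction, depending on the library: without LY6K-AS knockdown 1, 4 members passed in limma (DNAJB9, ERO1A, SEL1L and ERN1, beside 1183 genes, 9.2%), without YWHAG knockdown 1 ERO1A did (beside 720 genes, 5.6%), and without YWHAG knockdown 2 ERO1A and DERL1 did (beside 736 genes, 5.72%). Without LY6K-AS knockdown 2, either LNA control or either siRNA control, 0 members and 0 genes passed. Each of these fits left a group with 1 library, assumed to vary as its counterpart does. They therefore do not show that a call is stable.

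**Figure D4:**
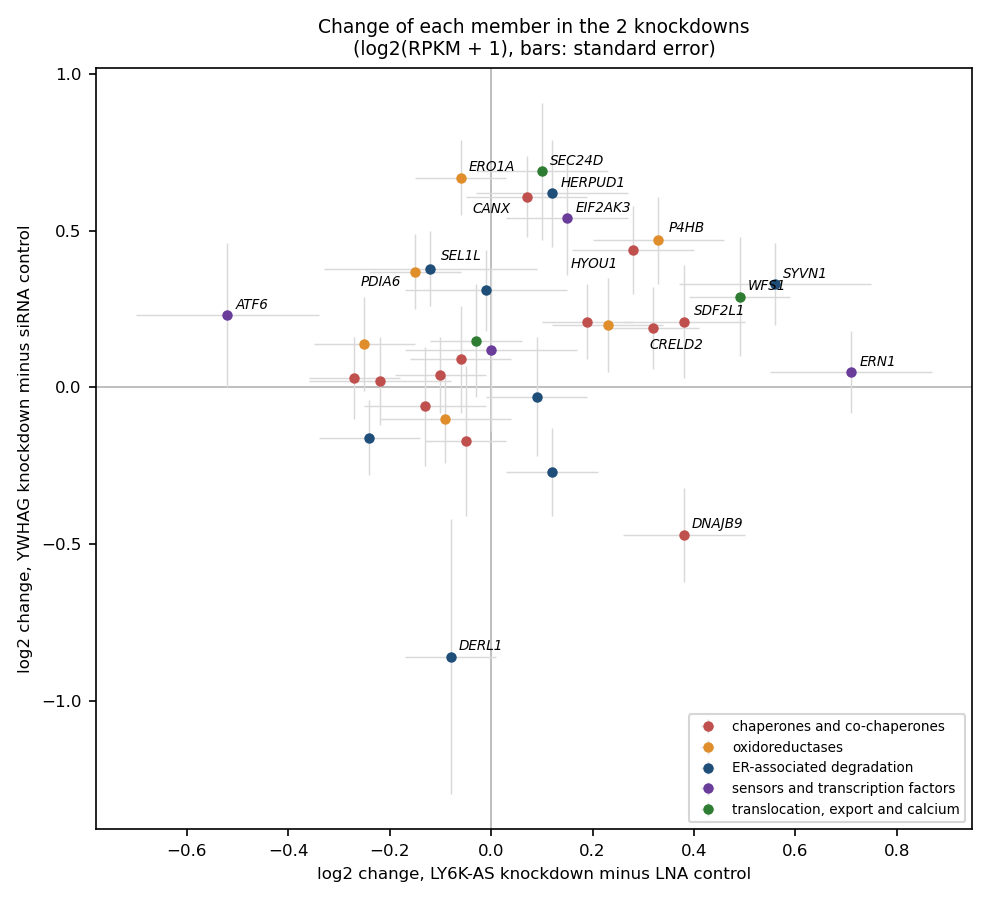
Each point is a member, its log2 change after LY6K-AS knockdown on the x axis and after YWHAG knockdown on the y axis, coloured by role, with bars of 1 standard error. DNAJB9 stands alone at lower right (0.38 and -0.47), ERN1 lies far right near 0 on the y axis, and ERO1A, CANX, HERPUD1 and SEC24D lie high near 0 on the x axis.

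The changes were also read against the promoter elements shown above, as a description with no test. The 9 members with ERSE or ERSE-II had a median log2 change of 0.12 after LY6K-AS knockdown (5 higher, 4 lower) and of 0.20 after YWHAG knockdown (8 higher, 1 lower). The 21 members whose window held neither had a median of 0.00 after LY6K-AS knockdown and of 0.15 after YWHAG knockdown (15 higher, 6 lower). Within the first set the changes after YWHAG knockdown ran from -0.06 for HSPA5, with an ERSE, to 0.62 for HERPUD1, with an ERSE-II.

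Beyond the members, 7 lists of related ER genes held 116 measured genes. After LY6K-AS knockdown 62 were higher and 54 lower (median 0.02), 13 higher and 10 lower at an unadjusted p under 0.05. Among all genes 50.3% were higher, and at that level 13.6% were higher and 11.7% lower. After YWHAG knockdown 75 were higher and 41 lower (median 0.11), 14 higher and 6 lower at that level; of all genes, 42.4% were higher (median -0.05), and at that level 7.51% were higher and 8.9% lower. With TMM scaling the YWHAG split was 87 higher and 29 lower. Of the 116, 0 passed an adjusted p of 0.05 in limma or in voom in either comparison. Without LY6K-AS knockdown 1, 67 passed in limma after LY6K-AS knockdown, and without LY6K-AS knockdown 2, 35 did, beside the 52.7% and 29.7% of all genes given above. For the difference of the 2 changes 0 passed in limma. The 12 genes of the PERK arm and integrated stress response had medians of 0.31 after LY6K-AS knockdown (9 higher, 3 lower) and 0.45 after YWHAG knockdown (8 higher, 4 lower). Single libraries moved them: the median was 0.19 with LY6K-AS knockdown 1 alone and 0.49 with LY6K-AS knockdown 2 alone, and 0.05 with YWHAG knockdown 1 alone and 0.35 with YWHAG knockdown 2 alone. SESN2, a stress-induced inhibitor of mTORC1, was at 8.65 and 12.1 RPKM in LY6K-AS knockdown and at 4.18 and 4.45 RPKM in LNA controls (1.08 ± 0.17, limma adjusted p = 0.103). ASNS, asparagine synthetase and a target of ATF4, was at 8.31 and 10.4 RPKM in LY6K-AS knockdown and at 18.8 and 18.5 RPKM in LNA controls (-0.93 ± 0.13, limma adjusted p = 0.103); it shares 44.6% of its exon length with AC079781.5 on the same strand. These 2 genes of the same list pointed in opposite directions.

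After YWHAG knockdown the PERK list was led by VLDLR, a lipoprotein receptor, at 8.25 and 7.12 RPKM in YWHAG knockdown and at 3.15 and 3.05 RPKM in siRNA controls (1.08 ± 0.14, limma adjusted p = 0.135; 0.0264 with the spread pooled over all libraries). Its difference (LY6K-AS change minus YWHAG change) was -1.58 ± 0.21 (limma adjusted p = 0.0527). That difference passed with voom (adjusted p = 0.0365, where 0.412% of all genes passed) and with TMM factors (0.0487, where 0.233% did). It also passed on the values as deposited (0.0293, where 0.481% did) and with the filter at 1 RPKM. It did not pass with the GC trend removed (limma adjusted p = 0.0558), with pseudocounts of 0.1 or 0.5, or with no filter. With 1 library left out, whether it passed depended on the library, either control of both tables among those without which it did not. Over the alternative runs other than that on the values as deposited, the difference ran from -2.03 to -1.39. TRIB3, a pseudokinase induced by ATF4, was at 33.2 and 18.4 RPKM in YWHAG knockdown and at 12 and 13.3 RPKM in siRNA controls (0.92 ± 0.29, limma adjusted p = 0.268). Among the COPII and export genes SEC24A, a relative of SEC24D, was at 11 and 7.44 RPKM in YWHAG knockdown and at 4.66 and 4.2 RPKM in siRNA controls (0.89 ± 0.20, limma adjusted p = 0.219). SEC24A and SEC24D thus lay above both controls in each YWHAG library, library 1 further than library 2. Of the 20 genes in the COPII and export list, 13 were higher and 7 lower after YWHAG knockdown (42.4% of all genes were higher). Named genes of other lists that were lower there included TMX3 and TRAF2. TMX3 was at 5.51 and 4.02 RPKM against 7.94 and 8.65 RPKM in siRNA controls (-0.70 ± 0.17, limma adjusted p = 0.234). TRAF2 was at 6.52 and 6.04 RPKM against 8.39 and 10.2 RPKM (-0.50 ± 0.15, limma adjusted p = 0.26). SIL1, the other nucleotide exchange factor of BiP, was at 4.4 and 4.42 RPKM in LY6K-AS knockdown and at 8.12 and 8.09 RPKM in LNA controls (-0.75 ± 0.09, limma adjusted p = 0.103; 0.0448 with the spread pooled), against the higher values of its functional counterpart HYOU1. FAM8A1, a cofactor of the SYVN1 ligase complex, lay above both controls in both knockdowns, at 4.79 and 6.52 RPKM in LY6K-AS knockdown and 3.19 and 3.77 RPKM in LNA controls, and at 8.04 and 7.5 RPKM in YWHAG knockdown and 4.63 and 5.09 RPKM in siRNA controls.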

How the data were processed

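The authors deposited RPKM values in 2 tables, each normalized on its own: 1 for the gapmer experiment and 1 for the siRNA experiment. The tools STAR, featureCounts, Subread and Picard and the build hg38 come, without versions, per the submitters' processing notes. Whether counting used strand is not given in the sources. Of 66206 identifiers per table, 57055 matched GENCODE 29 (52238 in the identical version). In the tests as reported, the remaining 9151 entered the siRNA comparison only where they reached the filter given below. They did not enter the LNA comparison. The deposited RPKM of the LNA table proved to be per genomic span and that of the siRNA table per merged exon length: multiplied by those lengths, 100% of values came out as whole reads within 0.05 reads. LNA values were therefore rescaled to merged exon length. For genes of another version, HSP90B1, DNAJB11, DNAJC10, MANF and SYVN1 among them, lengths were recovered from the values (2108 of 2174 expressed genes).

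Within a table, knockdown was set against scramble control on log2(RPKM + 1), a scale that understates changes of low genes, by limma 3.58.1 under R 4.3.3 with its trend option. Genes needed at least 0.5 RPKM in at least 2 of the 4 libraries. Tests were two-sided with Benjamini-Hochberg adjustment over all genes and a threshold of 0.05, on 2 residual degrees of freedom; the difference of both changes was tested in 1 fit over all 8 libraries with 4. The siRNA control columns carry the numbers 2 and 3 and the labels other numbers, so they were assigned to their group only. The alternatives were pseudocounts of 0.1 and 0.5, no filter and a filter at 1 RPKM, TMM factors, voom on the recovered reads, removal of the GC trend (loess, span 0.5), the spread pooled over all 8 libraries, the values as deposited, a replicate block and each library left out. Members, gene lists and tests were chosen with earlier results of these data known. The genes named are the 34 members, the targets and, per related list, those with the 2 smallest p in a comparison, of which a selection is described. The fits of both knockdowns, though not that of their difference, were tested on simulated data. Those data gave every gene and library the same spread, so they cannot show how the fits behave when libraries vary unevenly. Sequences are from RefSeq (GRCh38.p14), gene positions from GENCODE 29 (hg38).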

Additional observations from a re-analysis of the deposited data

How the results depend on the processing

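The counts of calls moved with the estimate of spread. After LY6K-AS knockdown the number of genes past the threshold was 0 as reported, 64 with the spread pooled over all 8 libraries, and between 0 and 7731 with 1 library left out; a group left with 1 library is then assumed to vary as its counterpart does. After YWHAG knockdown it was 0 as reported, 214 with the pooled spread and 0 with any library left out. For the difference of the changes it was 23 as reported, 5 with no filter, 53 with voom, 15 with the GC trend removed, 43 on the values as deposited and between 0 and 1183 with 1 library left out. The median log2 change of the members after LY6K-AS knockdown was 0.09 with the GC trend removed and between -0.04 and 0.08 with 1 library left out. After YWHAG knockdown the median was 0.22 and 0.21 with pseudocounts of 0.1 and 0.5, 0.17 with no filter, 0.30 with voom, 0.25 with TMM factors, 0.17 with the GC trend removed and between 0.14 and 0.22 with 1 library left out. The median of the differences was -0.20 both with voom and with TMM factors, and between -0.16 and -0.09 with 1 library left out. For these changes the cause was not tested. Numbered in the labels, the LNA libraries share only a number; with a replicate block 0 genes passed, the smallest adjusted p was 0.083 and the member median was -0.00. No paired analysis was possible for YWHAG because the columns of the siRNA controls do not carry the numbers of the labels.

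Single members that turned direction all had small changes in the fit with every library and had not passed there. With 1 library left out some of these changes were larger, as the ranges below show. With the GC trend removed, the LY6K-AS changes became 0.09 for DNAJB11, 0.05 for DNAJC10, 0.09 for ERO1A, 0.03 for SEL1L, 0.14 for EDEM3, 0.03 for DERL1, 0.06 for XBP1 and 0.03 for SEC61B, and on the values as deposited XBP1 was at 0.00. The YWHAG change of HSPA5 was 0.01 with voom and 0.01 with TMM factors, that of EDEM1 0.04 with voom, 0.03 with TMM factors and 0.00 with the GC trend removed, and that of DNAJC10 -0.00 with the GC trend removed. With 1 library left out, LY6K-AS changes ran from -0.04 to 0.17 for CANX, -0.23 to 0.06 for PDIA4, -0.12 to 0.01 for ERO1A, -0.07 to 0.31 for HERPUD1, -0.40 to 0.17 for SEL1L, -0.20 to 0.18 for EDEM3, -0.22 to 0.22 for XBP1, -0.06 to 0.00 for SEC61B and -0.04 to 0.24 for SEC24D. With 1 library left out, YWHAG changes ran from -0.28 to 0.15 for HSPA5, -0.04 to 0.10 for HSP90B1, -0.48 to 0.15 for DNAJB11, -0.05 to 0.09 for MANF, -0.11 to 0.28 for CALR, -0.22 to 0.01 for PDIA4, -0.26 to 0.20 for EDEM1, -0.01 to 0.11 for ERN1, -0.06 to 0.52 for ATF6, -0.23 to 0.46 for XBP1 and -0.04 to 0.34 for SEC61B. Of the differences between the knockdowns, those of the 6 members named kept their direction in every alternative run.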
